A study of Mus musculus with 6 samples.

Results

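The receptors for platelet-derived growth factor (PDGF), fibroblast growth factor (FGF), epidermal growth factor (EGF) and hepatocyte growth factor (HGF) were followed as 9 genes: Pdgfra, Pdgfrb, Fgfr1, Fgfr2, Fgfr3, Fgfr4, Egfr, Erbb2 and Met. They were chosen by name from the families of growth factor receptors, and every probe set that the platform annotation gives to exactly 1 of them was kept, which made 28 probe sets of 45037 on the array, and 9 genes of the 18193 that are named. RNA came from the mouse myoblast line C2C12, whose cells divide as muscle precursors, here with an integrin alpha7 construct under tetracycline control. One group of 3 samples, labelled induced, was grown undifferentiated for 36 h with 1 µg/ml tetracycline, and the other group of 3, noninduced, for 36 h without it. Both groups carried the construct, and both were grown in DMEM with 20% fetal bovine serum and chick embryo extract, which bring growth factors of their own. Each sample was hybridised to 1 array, and the series calls the samples of a condition biological triplicates.

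These receptors are single-pass membrane proteins with a tyrosine kinase inside the cell. A ligand brings receptors together in pairs, they phosphorylate each other on tyrosines, and adaptor proteins that dock there pass the signal to Ras and ERK, to PI3K and AKT, and to phospholipase C gamma. FGF and HGF are known to keep myoblasts dividing and to hold back their differentiation. HGF acts on quiescent satellite cells through Met, and PDGF receptor alpha marks the fibro-adipogenic cells that lie beside muscle fibres. Erbb2 has no known ligand of its own and works as a partner of the other EGF family receptors.

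The arrays set limits that hold for all values below. Itga7, the gene that the construct should raise, did not exceed the noninduced level where the labels say induced: its probe set gave 675, 727 and 676 on the arrays labelled induced and 811, 778 and 786 on the noninduced arrays (log2 fold change -0.19, limma adjusted p = 0.181). The construct's species and the part of the transcript it carries are not given, so that probe set may check nothing, and every direction below rests on the labels. Judged by the hybridisation times, induced replicate 1 shared a fluidics run with all noninduced arrays, and induced replicates 2 and 3 had a second run. All noninduced arrays were scanned first, so the order of scanning and the label cannot be told apart. The 3′ to 5′ probe set ratio of the housekeeping gene Gapdh was 0.761 to 0.782 on the arrays labelled induced and 0.788 to 0.802 on the noninduced arrays, and that of Actb was 1.117 to 1.143 on the arrays labelled induced and 1.0999 to 1.108 on the noninduced arrays. The median signal per array was 22.8 to 24.8 on the arrays labelled induced and 24.9 to 27.7 on the noninduced arrays.

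Of the 9 receptor genes, 7 had a probe set that exceeded, on all 6 arrays, the 90th percentile of genes restricted to other tissues, and Fgfr2 and Fgfr4 did not. The deposited table holds signals without detection calls, so each signal was set against 37 probe sets of 25 genes that belong to tissues far from muscle, such as albumin, growth hormone and protamines. On average over the 6 arrays these gave a median of 5.87, a 90th percentile of 20.6 and a highest value of 52.2, the last for Pomc, a pituitary hormone precursor. Of the 28 receptor probe sets, 16, from 7 genes, lay above the 90th percentile of that list on all 6 arrays. This bar is low: it lies below the array-wide median signal of 23.4, so most probe sets of the array exceeded it on average. The shares of all probe sets above it, or above the highest of the list, on all 6 arrays were not counted. The receptor counts are therefore not set against the array. Fgfr2 1433489_s_at and Fgfr4 1427846_x_at exceeded it on average (20.8 and 28.4) but not on every array. Met, Pdgfrb, Fgfr1, Egfr and Erbb2 had in all 10 probe sets above the highest of the list on every array. Brightness depends on the probes as well as on the transcript, so the signals do not rank the receptors by abundance. In RNA from whole cultures, fewer cells with a transcript and less of it per cell cannot be told apart.

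**Figure D1:**
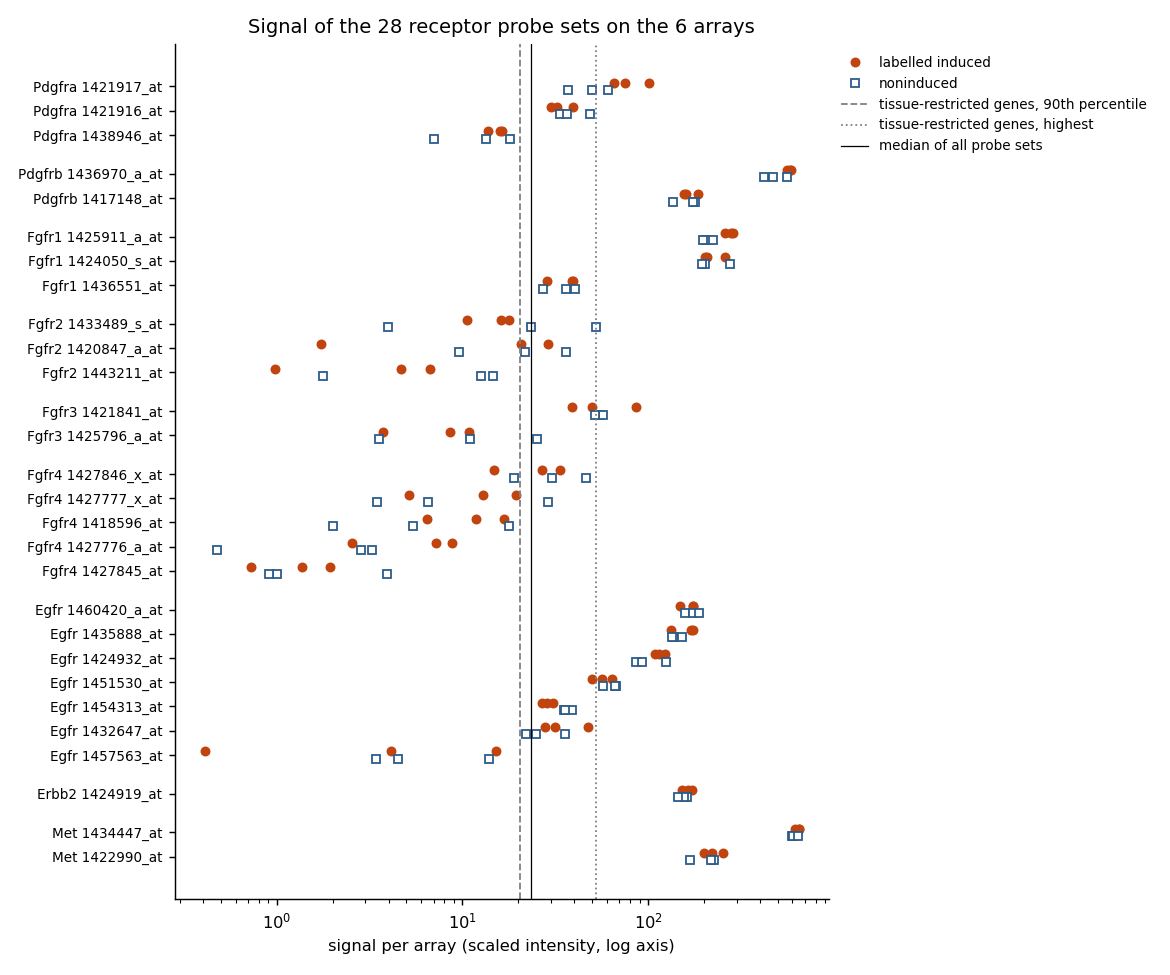
Signal of each of the 28 receptor probe sets (rows, grouped by gene) on the 6 arrays, on a log axis of scaled intensity. Filled circles are the 3 arrays labelled induced and open squares the 3 noninduced arrays; vertical lines mark the 90th percentile (20.6) and the highest value (52.2) of the tissue-restricted genes and the median of all probe sets (23.4). Met and Pdgfrb lie farthest to the right and all but 1 Fgfr4 probe set lie left of the median line on average.

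Met had all its probe sets above the highest tissue-restricted value and Fgfr2, like Fgfr4, had none above the 90th percentile on all arrays. The 250 bases before the start sites of Met and Fgfr2 are shown. They are the ends of the range of CG dinucleotides among the receptors with an entry, not typical of bright or dim receptors. The letters are from RefSeq, build GRCm38.p6, 5′ to 3′ on the strand of the gene, with each CG dinucleotide in capitals. The first lies at chr6:17463707-17463956 on the plus strand and the second at chr7:130266809-130267058 on the minus strand.
Met: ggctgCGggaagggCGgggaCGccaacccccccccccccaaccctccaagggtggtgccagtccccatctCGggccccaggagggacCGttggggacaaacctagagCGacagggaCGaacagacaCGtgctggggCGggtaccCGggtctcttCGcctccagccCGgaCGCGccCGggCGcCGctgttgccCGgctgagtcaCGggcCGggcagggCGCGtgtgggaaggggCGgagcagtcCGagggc
Fgfr2: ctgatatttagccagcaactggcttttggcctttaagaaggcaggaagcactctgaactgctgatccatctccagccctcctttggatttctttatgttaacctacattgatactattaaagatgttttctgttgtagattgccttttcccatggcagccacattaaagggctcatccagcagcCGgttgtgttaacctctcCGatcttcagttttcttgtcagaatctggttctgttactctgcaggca
The Met stretch held 24 CG dinucleotides and 3 copies of the GC box GGGCGG, searched on both strands. The Fgfr2 stretch held 2 CG dinucleotides and no GC box. Among 27025 mouse promoters of this length the median number of CG dinucleotides was 6, and 32.9% held a GC box. CG content did not follow detection throughout: Fgfr4 had 15 CG dinucleotides and 2 GC boxes, while Pdgfra had 4 and none. Erbb2 had 16 and none, Egfr had 11 and 1, and the start sites listed for Fgfr3 had 19 and 3, and 24 and 2. RefSeq entries were matched for 7 of the 9 receptors, by symbol, and Pdgfrb and Fgfr1, both bright, had none.

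Over all receptors, no probe set differed between the groups past the test across the array. Of the 28 probe sets, 18, from 8 genes, exceeded, on average, the array-wide median signal of 23.4 and were tested in limma, in 1 fit over 22518 probe sets. None of the 18 passed an adjusted p of 0.05, against 0.2% of all tested probe sets (45 probe sets). On the scale of log2(signal + 16) none reached a 1.5-fold difference, against 1.22%; the ratio of the mean signals was 1.63 for Pdgfra 1421917_at. At an unadjusted p under 0.05 there were 3, or 16.7%, against 14.7% of all. The groups did not overlap in 4 of the 18, or 22.2%, against 20.3% of all, so the receptors stood near the background of the array on both counts. Of these 4, 3 were higher (9.65% of all tested probe sets were) and 1 was lower (10.6%) on the arrays labelled induced. The log2 fold change was above 0 in 13 of the 18, against 47.4% of all tested probe sets. The count was 14 with the log2 values of an array shifted to a common median (median centring). That setting raised the values over the whole array, and the share of all tested probe sets above 0 was not counted there. The 18 share genes and are not independent. Their median was 0.05, beside -0.01 over all tested probe sets. With median centring these medians were 0.15 and 0.08.

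**Figure D2:**
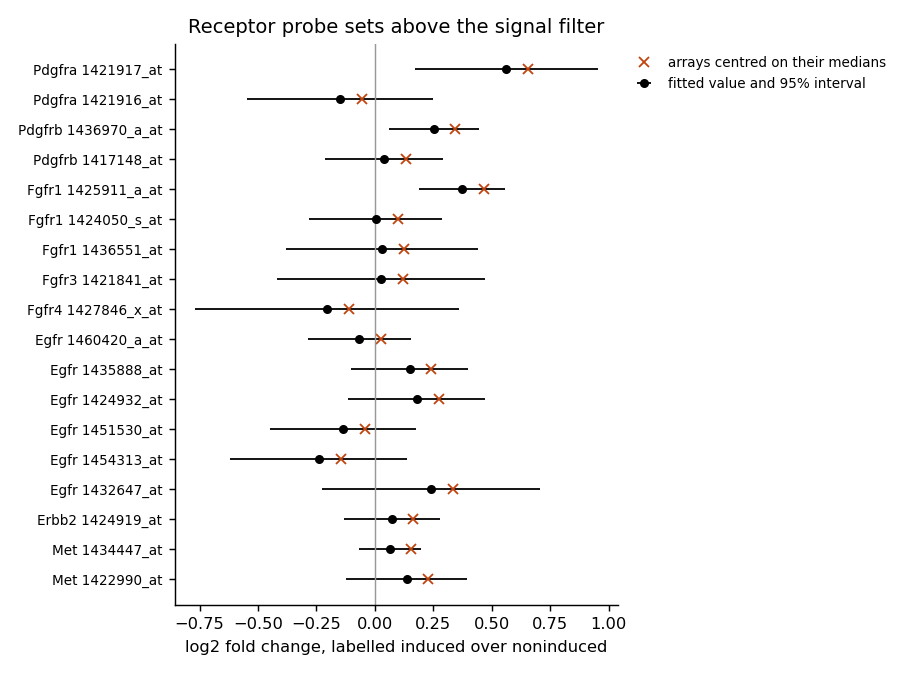
Log2 fold change, labelled induced over noninduced, of the 18 receptor probe sets above the signal filter (rows). Black points with bars are the fitted values with 95% intervals over 3 arrays a group, and crosses are the values with median centring. The intervals of Fgfr1 1425911_a_at, Pdgfra 1421917_at and Pdgfrb 1436970_a_at lie above 0, and the others include 0.

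The precision is stated on the scale of log2(signal + 16), which understates changes of dim probe sets. The 95% interval lay within a 1.5-fold change (0.58 on the log2 scale) in either direction for 14 of the 18 probe sets and reached beyond it for 4. The intervals extended 0.13 to either side of the value for the narrowest and 0.56 for the widest.

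Pdgfra, receptor for most forms of PDGF, gave the largest fold change of any receptor, with 1 of its probe sets. Probe set 1421917_at had signals of 101, 75.05 and 65.4 on the arrays labelled induced and 60.6, 37.3 and 50.1 on the noninduced arrays. All 3 arrays labelled induced lay above all 3 noninduced arrays. The means were 80.6 ± 18.6 and 49.3 ± 11.7 (SD, n = 3 each), with a log2 fold change of 0.56 (SE 0.18, 95% interval 0.17 to 0.96, limma adjusted p = 0.195). The difference did not pass, except after the signals were scaled to a common median (0.68, adjusted p = 0.0368), a setting chosen after seeing the data that calls 3.53% of all probe sets. The log2 fold change was 0.70 with 1 in place of 16 added to each signal and 0.35 with 64. It was 0.86 for induced replicate 1 against the noninduced arrays of its own run. Probe set 1421916_at had signals of 39.5, 32.2 and 30.2 on the arrays labelled induced and 48.4, 33.8 and 36.6 on the noninduced arrays, and these groups overlapped (log2 fold change -0.15, limma adjusted p = 0.750). The remaining probe set, 1438946_at, lay below the filter with 15.4 ± 1.38 on the arrays labelled induced and 12.8 ± 5.54 on the noninduced arrays (SD, n = 3 each).

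The Pdgfra probe sets thus gave different answers, and this was also seen inside each array. The log2 ratio of 1421917_at over 1421916_at was 0.94 ± 0.13 on the arrays labelled induced and 0.23 ± 0.12 on the noninduced arrays (SD, n = 3 each). The groups did not overlap (difference 0.71, exact two-sided permutation p = 0.1, the smallest that 3 against 3 arrays allow). For 5 receptors the 2 brightest probe sets were compared in this way, a comparison chosen after the values were seen, and the p adjusted over the 5 was 0.25. Both probe sets carry the same transcript accession in the annotation, and which transcript ends they measure was not examined.

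Pdgfrb, the receptor that binds PDGF-B chains and is known from mesenchymal and mural cells, was among the brightest receptor probe sets. Probe set 1436970_a_at had signals of 587, 562 and 582 on the arrays labelled induced and 558, 423 and 474 on the noninduced arrays. The groups did not overlap, but noninduced replicate 1 came close to induced replicate 2. The fitted difference was 0.25 on the log2 scale (SE 0.088, 95% interval 0.06 to 0.44, limma adjusted p = 0.227). It was 0.16 without noninduced replicate 2 and 0.35 without noninduced replicate 1, and 0.28 for the single induced array of the first run. Probe set 1417148_at had signals of 156, 161 and 185 on the arrays labelled induced and 179.7, 174 and 135 on the noninduced arrays. These overlapped, and the log2 fold change was 0.04 (95% interval -0.21 to 0.29).

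Fgfr1, the main FGF receptor described in cultured myoblasts, had the lowest p of all receptor probe sets. Probe set 1425911_a_at had signals of 259, 281 and 287 on the arrays labelled induced and 204, 199 and 224 on the noninduced arrays. The groups did not overlap and lay well apart. The means were 275 ± 14.9 and 209 ± 13.2 (SD, n = 3 each), a fitted 1.30-fold difference (log2 0.37, SE 0.084, 95% interval 0.19 to 0.56, limma adjusted p = 0.0940). The call depended on the scaling: the adjusted p was 0.0412 with median centring (log2 0.47), a setting that calls 1.36% of all probe sets, and 0.0218 with signals scaled to a common median (log2 0.52). The log2 fold change lay between 0.34 and 0.42 when any 1 array was left out, and it was 0.29 for the single induced array of the first run.

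The other Fgfr1 probe sets did not show this difference. Probe set 1424050_s_at, of similar brightness, had signals of 261, 204 and 207 on the arrays labelled induced and 275, 202 and 197 on the noninduced arrays. Replicate 1 of either group was the high one here, and the log2 fold change was 0.00 (95% interval -0.28 to 0.29, limma adjusted p = 0.993). The dim probe set 1436551_at gave 35.6 ± 6.23 on the arrays labelled induced and 34.6 ± 6.65 on the noninduced arrays (SD, n = 3 each; log2 0.03). The within-array log2 ratio of 1425911_a_at over 1424050_s_at was 0.29 ± 0.26 on the arrays labelled induced and -0.08 ± 0.29 on the noninduced arrays (SD, n = 3 each; exact two-sided permutation p = 0.2). The probe sets were designed from different transcript accessions, and Fgfr1 is known for splice forms that differ in their extracellular domains. Which forms each probe set measures was not examined.

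**Figure D3:**
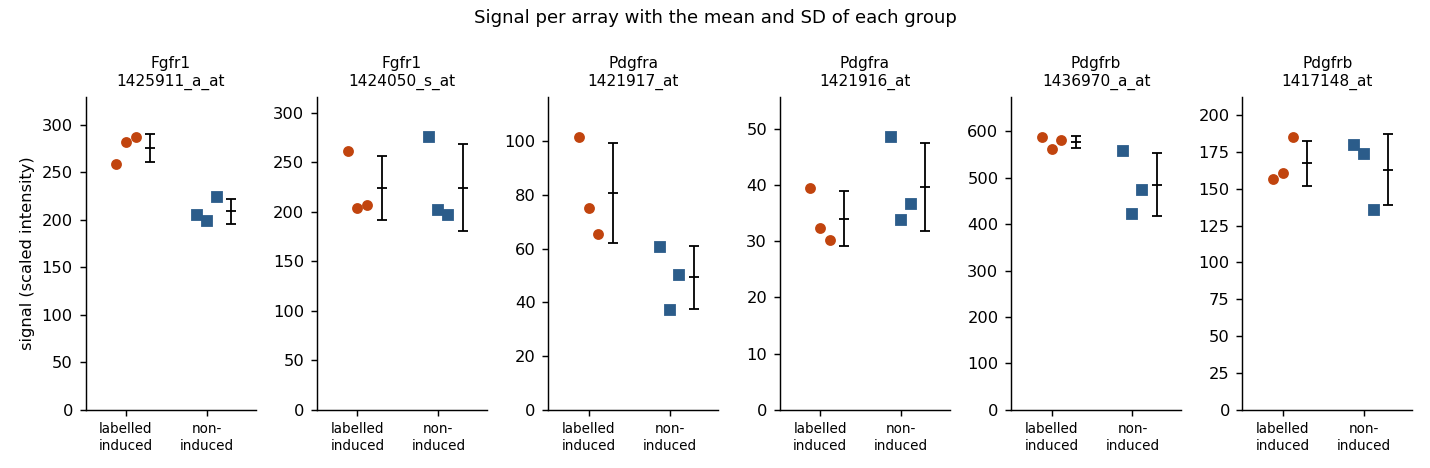
Signal (scaled intensity, linear axis from 0) on each array for the 2 brightest probe sets of Fgfr1, Pdgfra and Pdgfrb. Circles are the 3 arrays labelled induced, squares the 3 noninduced arrays, in order of replicate number, and the bars give mean and SD. In each gene the left panel has groups that do not overlap (275 against 209 for Fgfr1 on average) and the right panel has groups that do.

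The other FGF receptors were dim. Fgfr3, a receptor best known from cartilage, had 1 probe set above the filter, 1421841_at, with signals of 85.8, 50.1 and 39.1 on the arrays labelled induced and 54.2, 57.4 and 52.1 on the noninduced arrays. Induced replicate 1 was the highest of the 6 arrays and induced replicate 3 the lowest, and the log2 fold change of 0.03 became -0.23 without induced replicate 1. Fgfr4, known for a role in muscle regeneration, had 5 probe sets, and 1 of them, 1427846_x_at, passed the filter with signals of 26.9, 33.5 and 14.8 on the arrays labelled induced and 18.9, 46.1 and 30.3 on the noninduced arrays. The groups overlapped (log2 fold change -0.21, 95% interval -0.77 to 0.36). The mean signals of the other 4 Fgfr4 probe sets ranged from 1.65 to 12.7.

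Fgfr2, the receptor for FGF7 and FGF10 in epithelia, had no probe set above the filter. Its brightest probe set, 1433489_s_at, had signals of 10.7, 16.2 and 17.7 on the arrays labelled induced and 23.5, 3.99 and 52.6 on the noninduced arrays. Noninduced replicate 3 alone exceeded the highest tissue-restricted probe set. Around the filter, the Fgfr2 probe sets 1420847_a_at and 1433489_s_at lay just below with mean signals of 19.8 and 20.8, and Fgfr4 1427846_x_at and Egfr 1432647_at just above with 28.4 and 31.7. None of the 10 untested receptor probe sets, whose signals ran from 0.408 to 52.6, had groups that did not overlap. The share among all untested probe sets was not counted, so this is not set against the array.

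Egfr, the receptor of EGF and transforming growth factor alpha, had 7 probe sets, which differed in sign. The brightest, 1460420_a_at, had signals of 149, 174 and 174 on the arrays labelled induced and 159, 176 and 188 on the noninduced arrays (log2 fold change -0.07, limma adjusted p = 0.805). The next, 1435888_at, had signals of 133, 176 and 171 on the arrays labelled induced and 139, 152 and 135 on the noninduced arrays (log2 fold change 0.15, limma adjusted p = 0.586). Both pairs of groups overlapped. Probe set 1424932_at gave 0.18, 1451530_at -0.14 and 1432647_at 0.24 on the log2 scale, none past the test. Of the 7, only 1454313_at had groups that did not overlap: its signals were 30.7, 26.8 and 28.4 on the arrays labelled induced and 35.3, 38.9 and 35.8 on the noninduced arrays. Its log2 fold change was -0.24 (95% interval -0.62 to 0.14, limma adjusted p = 0.558), and the sign of the brightest probe set turned to 0.03 with median centring. The seventh probe set, 1457563_at, had a mean signal of 6.94.

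Erbb2, the partner receptor of the EGF family, and Met, the HGF receptor, had groups that overlapped in every probe set. The Erbb2 probe set, 1424919_at, had signals of 172, 153 and 165 on the arrays labelled induced and 163, 156 and 145 on the noninduced arrays. The log2 fold change was small (0.07, 95% interval -0.13 to 0.28, limma adjusted p = 0.768). Met probe set 1434447_at, the brightest receptor probe set, had signals of 619, 651 and 651 on the arrays labelled induced and 596, 601 and 639.9 on the noninduced arrays. The means were 640.5 ± 18.3 and 612 ± 24.0 (SD, n = 3 each), and the log2 fold change was 0.06 (95% interval -0.07 to 0.20, limma adjusted p = 0.671). The second Met probe set, 1422990_at, had signals of 201, 252 and 222 on the arrays labelled induced and 167, 226 and 219 on the noninduced arrays, which overlapped (log2 fold change 0.14, limma adjusted p = 0.642). Its value for the single induced array of the first run was -0.01. Across the 6 arrays the log2 signals of the 2 Met probe sets had a Pearson r of 0.69, beside r = 0.35 for Egfr, 0.24 for Pdgfrb, 0.13 for Pdgfra and -0.18 for Fgfr1; these are descriptions over 6 arrays that share their scaling.

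Genes whose signal followed the same course over the 6 arrays were looked up among 19833 other tested probe sets with 1 gene. For Met 1434447_at the 5 nearest were Smc6, Ide, Asnsd1, Fam91a1 and Nucks1, with Pearson r between 0.985 and 0.996. For Fgfr1 1425911_a_at they were Numb, Wtap, Syncrip, Tmx3 and Eif5, with r between 0.991 and 0.994. None of these 10 passed the test between the groups. They are the highest of 19833 correlations over only 6 arrays, where high values can arise by chance, and the correlations were not tested.

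Ligands of the receptors were measured on the same arrays, and no ligand passed the test. Each gene was represented by its brightest probe set. Of the 4 PDGF genes 3 were tested. Pdgfb had signals of 287, 381 and 299 on the arrays labelled induced and 435, 408 and 399 on the noninduced arrays, which did not overlap (log2 fold change -0.36, limma adjusted p = 0.146); its other probe set gave -0.15. Pdgfc was at 0.23 and Pdgfa at -0.08. The other Pdgfc probe set gave 0.28 and was higher on the arrays labelled induced without overlap (limma adjusted p = 0.181, and 0.0431 after scaling to a common median). The other Pdgfa probe set gave -0.18. Of 18 FGF genes only 4 lay above the filter. Fgf7, a ligand of Fgfr2 forms, gave 239 ± 11.7 on the arrays labelled induced and 193 ± 9.65 on the noninduced arrays (SD, n = 3 each), without overlap (log2 fold change 0.29, limma adjusted p = 0.163, and 0.0387 after scaling to a common median). Its other probe set gave 0.11. Fgf4 and Fgf3, at -0.27 and -0.45, had mean signals of 45.2 and 24.5. Fgf2, the ligand commonly added to myoblast cultures, had a mean signal of 16.6 and was not tested.

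EGF family ligands lay mostly below 0. Of 6 tested, 5 had a negative log2 fold change and 1 a positive one, where 47.4% of all tested probe sets were above 0. None passed (median -0.18, beside -0.01 over all tested probe sets). With median centring 5 were still negative, with a median of -0.09, beside 0.08 over all. Hbegf, the heparin-binding ligand of Egfr, had signals of 360, 357 and 321 on the arrays labelled induced and 372, 398 and 404 on the noninduced arrays. These groups did not overlap, with a log2 fold change of -0.17 (limma adjusted p = 0.316), and its other probe set gave -0.19. Ereg, epiregulin, was at -0.20. Btc, betacellulin, was at 0.25 and higher on the arrays labelled induced without overlap. Of the 6 ligands, 1 was higher and 2 were lower without overlap, where 20.3% of all tested probe sets did not overlap in either direction. Btc and Tgfa were dim, with mean signals of 32.4 and 34.3. Tgfa was at -0.45, with values from -0.66 to -0.11 over the refits, and its other probe set, 1421943_at, below the filter, averaged 21.2 on the arrays labelled induced and 8.66 on the noninduced arrays, without overlap. Hgf, the ligand of Met, had signals of 15.3, 9.06 and 15.2 on the arrays labelled induced and 17.2, 19.7 and 24.3 on the noninduced arrays, below the filter on average. Of the 7 genes around HGF, Spint1, an inhibitor of the protease that activates HGF, was the single one tested (-0.16).

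Co-receptors bind FGF and other ligands through heparan sulfate chains. Of 16 tested, none passed, 9 were positive and 7 negative (median 0.01), or 14 and 2 with median centring. Median centring raised the median of all tested probe sets from -0.01 to 0.08. Sdc4, the proteoglycan syndecan-4, had signals of 627, 655 and 577 on the arrays labelled induced and 794, 843 and 772 on the noninduced arrays, well apart (log2 fold change -0.37, SE 0.066, limma adjusted p = 0.0553). It was past the threshold with robust moderation (adjusted p = 0.0461) and with a filter at the 75th percentile (0.0384). It was at -0.27 with median centring (adjusted p = 0.0804) and at -0.22 after scaling to a common median (adjusted p = 0.171), and its adjusted p ran from 0.0384 to 0.402 over the refits. Its other probe set gave -0.06. Sdc1, syndecan-1, was at 0.27 with its brightest probe set, past the threshold after scaling to a common median (adjusted p = 0.0399), and at -0.11, -0.04 and -0.20 with the others. The brightest members, Cd44 (-0.04) and Gpc1, glypican-1 (-0.01), were positive after median centring. Of 7 related receptors tested none passed: the bright Axl was at -0.05 and Ddr2 at 0.07, Csf1r, the receptor of macrophage growth factor, was at -0.26, and Flt1, at -0.67, had a mean signal of 24.9, close to the filter.

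With each gene at its brightest probe set, adaptors that carry the signal inside the cell lay close to 0. None of the 21 tested passed, 11 were positive and 10 negative, and the median was 0.00. With median centring, where all tested probe sets had a median of 0.08, 17 were positive and 4 negative. The phosphatase gene Ptpn11 (SHP2) was at -0.03 and Crk at 0.05, and the largest values of brightest probe sets were those of the docking proteins Gab2 (-0.20) and Gab1 (0.17). Other tested probe sets of these genes went further or the other way. They gave 0.01 and 0.34 for Ptpn11, 0.02 and -0.40 for Gab2, 0.10 and 0.09 for Gab1, and -0.09 to 0.03 for Crk. Among 17 genes that switch receptors off, none passed, and 10 were negative, or 5 with median centring. Of the 17, 4 had groups that did not overlap, against 20.3% of all tested probe sets in either direction. All 4 were lower on the arrays labelled induced, against 10.6% of all, and this direction was picked after it was seen. Of the 21 adaptors 2 were higher without overlap and 0 lower, and of the 16 co-receptors 2 were higher and 1 lower. The 4 lower genes that switch receptors off were Errfi1, Eps15, the ubiquitin ligase Cblb and the phosphatase Ptpn1, the last pair named after their values were seen. Errfi1 (MIG6), a feedback inhibitor that binds EGF receptor kinases, had signals of 886, 996 and 919 on the arrays labelled induced and 1078, 1287 and 1303 on the noninduced arrays. Its groups lay apart (log2 fold change -0.38, SE 0.076, limma adjusted p = 0.0695), its other probe set gave -0.42, and it was at -0.23 after scaling to a common median (adjusted p = 0.156). Over the refits its adjusted p ran from 0.0371, without noninduced replicate 1, to 0.343, in the first run alone. Eps15, an endocytic adaptor, was at -0.28, although another of its probe sets gave 0.21 and was higher on the arrays labelled induced without overlap. Sh3kbp1 (CIN85), a partner of the ubiquitin ligase Cbl, was at 0.04.

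**Figure D4:**
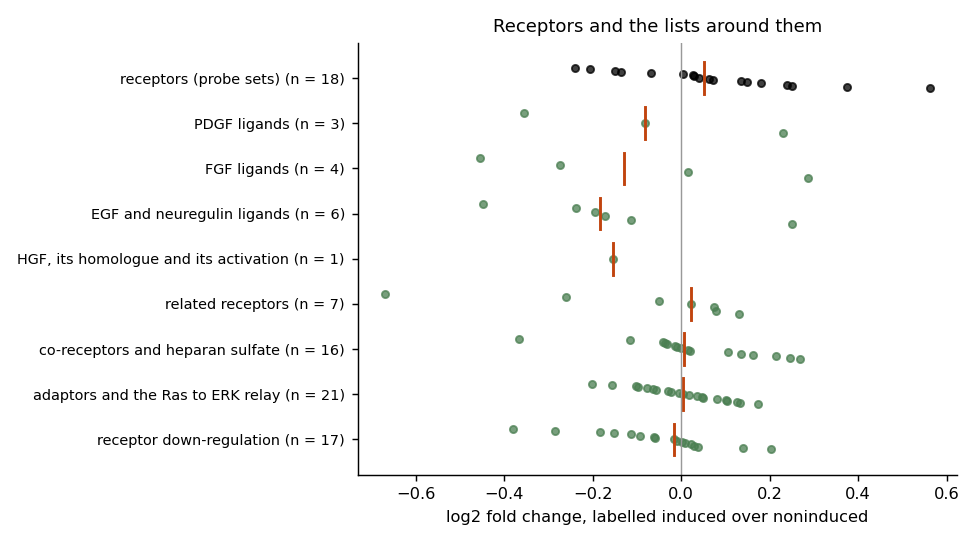
Log2 fold change, labelled induced over noninduced, of the 18 receptor probe sets (top row) and of the tested genes of the lists around the receptors, with 1 point for each gene at its brightest probe set and a vertical bar at the median. The median is 0.05 for the receptors, -0.18 for the EGF ligands and 0.00 for the adaptors, and the list points with the largest negative values, Flt1 and Fgf3, are close to the signal filter.

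Markers of the labelled cell type lay above the signal filter on average, and those of fibroblasts and endothelium did not. All 8 myoblast markers had a mean above it, with summed signals of 6663 to 6923 on the arrays labelled induced and 6888 to 6942 on the noninduced arrays. Their log2 fold changes were positive in 4 and negative in 4. Chrng was dim, with a mean signal of 34.4, and exceeded the 90th percentile of the tissue-restricted genes on only 4 of the 6 arrays. Myod1 was at -0.17 (limma adjusted p = 0.261) and Chrna1 at -0.12, and Des was at 0.07 and Ncam1 at 0.22 (limma adjusted p = 0.202, and 0.0371 after scaling to a common median). None of 7 fibroblast markers lay above the filter, with sums of 41.8 to 67.8 and 54.3 to 105 on the same groups, and none of 5 endothelial markers, with sums of 27.6 to 40.03 and 45.6 to 60.9. Dcn and Pi16 were lower on the arrays labelled induced without overlap (means of 3.53 and 1.41, against 11.6 and 5.37 on the noninduced arrays). The groups of the other 5 fibroblast markers overlapped. The endothelial marker Tie1 was also lower without overlap (0.599 to 1.55, against 1.84 to 9.66 on the noninduced arrays). So was the tissue-restricted gene Tshb (10.4 to 12.5, against 13.5 to 19.1). The share among all untested probe sets was not counted, so no such difference below the filter is set against the array. The summed signals of the tissue-restricted genes were 226 to 273 on the arrays labelled induced and 310.0 to 323 on the noninduced arrays. Of 5 pericyte and smooth muscle markers 3 were above the filter, Acta2, Cspg4 and Mcam (the last 29.6 to 55.3 on the arrays labelled induced and 8.91 to 21.3 on the noninduced arrays; log2 fold change 1.03, limma adjusted p = 0.109, 0.0468 with median centring and 0.0232 after scaling to a common median). Acta2 was at 0.06 and Cspg4 at -0.16, and Rgs5, below the filter, averaged 7.96 on the arrays labelled induced and 19.7 on the noninduced arrays, without overlap. The sums of that list were 9413 to 9811 and 8946 to 9537. Of 5 macrophage markers 4 were above the filter, with sums of 272 to 304 and 294 to 344, Adgre1 at -0.25 and Cd14 at -0.04. Of 5 epithelial markers 2 were above it, with sums of 127 to 140.2 and 131 to 149, Epcam at -0.22 and Krt8 at 0.11. The part of these cells in the receptor values was not tested.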

How the data were processed

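Total RNA of 6 samples, 3 labelled induced and 3 noninduced by their titles, was hybridised to 1 Affymetrix array of the Mouse430_2 design each, per the file headers. The authors deposited a linear signal intensity per probe set, for which the submitters' processing notes name GCOS 1.1.1; its settings are not given. With the outer 2% at either end trimmed, the mean signal came to 150.0 on every array, so values are relative to the whole array. The deposited instrument records, of unit other, gave the times of hybridisation and of scanning. The scan order was read from the scan times. The fluidics run was inferred: a gap of more than 30 minutes between hybridisation times was taken to start a new run.

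The 64 control probe sets were set aside. Genes were named from probe sets with 1 gene in the platform annotation (34945; 932 had several and 9160 were not listed). No symbol changed through the RefSeq table of GRCm38.p6. Signals were taken to log2(signal + 16), those whose mean exceeded the array-wide median entered the test, and limma 3.58.1 (R 4.3.3) compared the groups with a variance trend (Benjamini-Hochberg adjustment over all 22518, threshold 0.05). Exact two-sided permutation tests were used for within-array ratios. The p-values measure the spread between samples, and the precision is limited by how many arrays there are. The scripts were tested on simulated data.

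The members, lists and alternatives were chosen with earlier results of these data known. Named are all receptor probe sets, Itga7, for each list, but for the tissue-restricted one, the members past the threshold, the 2 of largest change and the 2 of highest signal, and the 5 probe sets most alike to the brightest receptor and to the one with the lowest p. Hgf, Fgf2, Cblb, Ptpn1, Chrng, Dcn, Pi16, Tie1, Tshb and Rgs5 were added after their values were seen. Alternatives were quantile normalization, median centring, scaling of signals to a common median, other filters, pseudocounts and variance models, a block for replicate number or for fluidics run, the first run alone and leaving out each array. Same-numbered samples of the groups did not deviate together (correlations of deviations 0.012, -0.063 and -0.009).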

Additional observations from a re-analysis of the deposited data

How the results depend on the processing

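Both the counts of calls and the receptor values depended on the processing. No receptor probe set passed in any fit except 1 with median centring and 2 with signals scaled to a common median, where the medians of all tested probe sets were 0.08 and 0.13 in place of -0.01. Over the array, 45 calls became 306 (294 higher, 12 lower) with median centring, 794 (775 higher, 19 lower) with scaled medians, 1 without a filter, 102 with a filter at the 75th percentile and 74 with robust moderation. They became 0 when limma used no variance trend (2817 had an unadjusted p under 0.05), 0 with a block for the fluidics run (1923) and 0 in the first run alone (1969), both of which rest on induced replicate 1. With the replicate block there were 5 calls, 0 of them receptors; the titles do not say that the numbers pair the samples. Leaving out 1 array gave 0 (without induced replicate 1, with 2604 at an unadjusted p under 0.05) to 49 calls, with 11 when induced replicate 2 was left out, 1 for noninduced replicate 2 and 9 for noninduced replicate 3. The log2 fold changes of receptors kept their direction in 293 of 315 refits and turned in 22, and those of the list genes turned in 17 of 455; the cause was not tested. With median centring, Egfr 1460420_a_at at 0.026, Pdgfa 1449187_at at 0.013, Axl 1423586_at at 0.044, Gpc1 1417389_at at 0.080, Cd44 1423760_at at 0.056 and Ptpn11 1451225_at at 0.063 turned. With scaled medians, Egfr 1460420_a_at at 0.074, Pdgfa 1449187_at at 0.067, Axl 1423586_at at 0.10, Gpc1 1417389_at at 0.14, Cd44 1423760_at at 0.12 and Ptpn11 1451225_at at 0.12 turned. With quantile normalization, Fgfr1 1424050_s_at at -0.0066 turned. With a block for the run, and equally in the first run alone, Pdgfra 1421916_at at 0.0058, Pdgfrb 1417148_at at -0.044, Egfr 1435888_at at -0.079, Met 1422990_at at -0.013 and Gab1 1417693_a_at at -0.14 turned. With 1 array left out, values that crossed 0 ran for Pdgfrb 1417148_at from -0.076 to 0.11, Fgfr1 1424050_s_at from -0.10 to 0.15, Fgfr1 1436551_at from -0.078 to 0.13, Fgfr3 1421841_at from -0.23 to 0.22, Fgfr4 1427846_x_at from -0.41 to 0.0041, Egfr 1460420_a_at from -0.13 to 0.0016, Pdgfa 1449187_at from -0.15 to 0.021, Gpc1 1417389_at from -0.037 to 0.011, Cd44 1423760_at from -0.073 to 0.0018 and Sh3kbp1 1460337_at from -0.042 to 0.14.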
